A study of Mus musculus with 20 samples.

Results

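Bone marrow transcripts of *Clec1b* and of 8 megakaryocyte and platelet genes, *Pf4*, *Ppbp*, *Itga2b*, *Gp9*, *Gp5*, *Gp6*, *Vwf* and *Treml1*, were followed across 20 mice in 4 groups of 5. These are 9 of the 37620 genes in the count table. *Clec1b* had been picked because its own counts rose in earlier results of these data, so its levels and fold differences are given here as a description without a test. The other 8 genes were picked as markers of the lineage, and their tests come from fits across all genes.

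All mice were irradiated recipients of marrow from transgenic donors, in which a doxycycline-dependent transgene (driven through rtTA) encodes either the wild-type splicing factor U2AF1, U2AF1(WT), or its S34F mutant, U2AF1(S34F). In every group the transgene carried was induced with doxycycline chow (625 ppm) for 7 days after more than 6 weeks of engraftment. The U2AF1(WT) mice are therefore transgenic controls and not untreated animals. Over the last 5 days the mice were infused with sudemycin D6, a compound that binds the SF3B1 spliceosome component, or with vehicle. The groups are named by transgene and infusion as WT-vehicle, WT-sudemycin, S34F-vehicle and S34F-sudemycin, and comparisons are made in 5 pairs: U2AF1(S34F) against U2AF1(WT) under either infusion, sudemycin against vehicle in either genotype, and S34F-sudemycin against WT-vehicle mice, called the combined comparison. Donor marrow was pooled from several animals before transplantation, residual host cells may remain, and ages are given by the study only as ranges that are not split by group. The labels do not say from which pool each recipient was made, so p-values measure the spread between recipients.

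The summed gene counts ranged from 41145892 to 62138138 per mouse. Counts of *U2af1*, on which reads of the transgene may also fall, were higher in S34F-vehicle than in WT-vehicle mice by 0.48 on the log2 scale (SE 0.07, FDR=0.000294). In all 10 U2AF1(WT) mice the counts of *Xist* exceeded those of 4 summed Y-linked genes, and in all 10 U2AF1(S34F) mice the reverse was seen. By these transcripts the genotypes also differed in the sex of the marrow. Genotype and sex therefore cannot be told apart, for any gene, in any comparison between the genotypes, the combined comparison included. A change given below as with the mutant is a difference between such groups. The drug comparisons lie within a genotype.

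Megakaryocytes are large polyploid marrow cells that shed platelets, and their precursors already carry integrin αIIb. *Clec1b* encodes CLEC-2, a C-type lectin-like receptor of platelets and megakaryocytes whose ligand is podoplanin (*Pdpn*) and which signals through the tyrosine kinase Syk. In the mouse CLEC-2 has also been described on some myeloid cells. Among the other members *Pf4* and *Ppbp* encode chemokines of the platelet α-granule, *Itga2b* encodes integrin αIIb of the fibrinogen receptor, and *Gp9* and *Gp5* encode subunits of the GPIb-IX-V receptor for von Willebrand factor. *Gp6* encodes the collagen receptor GPVI, *Vwf* encodes von Willebrand factor, and *Treml1* encodes TLT-1, a receptor stored in the α-granule.

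*Clec1b* was higher in each of the other 3 groups than in WT-vehicle mice. Levels are counts per 1000000 reads (CPM) after TMM scaling, which corrects for library composition, and each set of 5 mice is listed from low to high. In WT-vehicle mice *Clec1b* stood at 2.84, 3.62, 3.65, 4.99 and 5.24 CPM (mean 4.07 ± 1.01, SD, n=5). In WT-sudemycin mice it stood at 8.75, 8.90, 10.6, 11.3 and 11.99 CPM (10.3 ± 1.45), and in S34F-vehicle mice at 7.28, 8.68, 9.29, 10.6 and 14.4 CPM (10.1 ± 2.73). S34F-sudemycin mice reached 14.6, 24.3, 25.3, 26.5 and 34.4 CPM (25.03 ± 7.04). Thus the WT-vehicle mice were the lowest 5 of the 20, the S34F-sudemycin mice were the highest 5, and the range of the WT-sudemycin mice lay inside that of the S34F-vehicle mice. The depth behind these values was 158 to 268 reads per mouse in the lowest group and 777 to 1897 in the highest.

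On the log2 scale the difference of *Clec1b* between the genotypes was 1.29 (SE 0.21) under vehicle and 1.28 (SE 0.19) under sudemycin. The difference between sudemycin and vehicle was 1.31 (SE 0.18) in U2AF1(WT) mice and 1.31 (SE 0.22) in U2AF1(S34F) mice. S34F-sudemycin mice exceeded WT-vehicle mice by 2.61 (SE 0.22), and the term for the interaction of genotype and drug was −0.02 (SE 0.24). The differences for genotype and drug thus added up on the log2 scale. Ordered from the highest log2 fold change, *Clec1b* was gene 116 of 14817 for genotype under vehicle, 91 of 14677 for genotype under sudemycin, 70 of 14763 and 49 of 14714 for the drug in U2AF1(WT) and U2AF1(S34F) mice, and 19 of 14761 in the combined comparison.

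Groups did not overlap for *Clec1b* in any of these 5 comparisons. Over all genes tested, groups did not overlap, with the higher values in the same group as for *Clec1b*, for 9.91% of genes under vehicle and 10.4% under sudemycin between the genotypes. The same share was 1.89% for the drug in U2AF1(WT) mice, 3.83% for the drug in U2AF1(S34F) mice and 11.9% in the combined comparison. Because *Clec1b* was picked on these counts, nothing is read from its place in these shares.

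**Figure D1:**
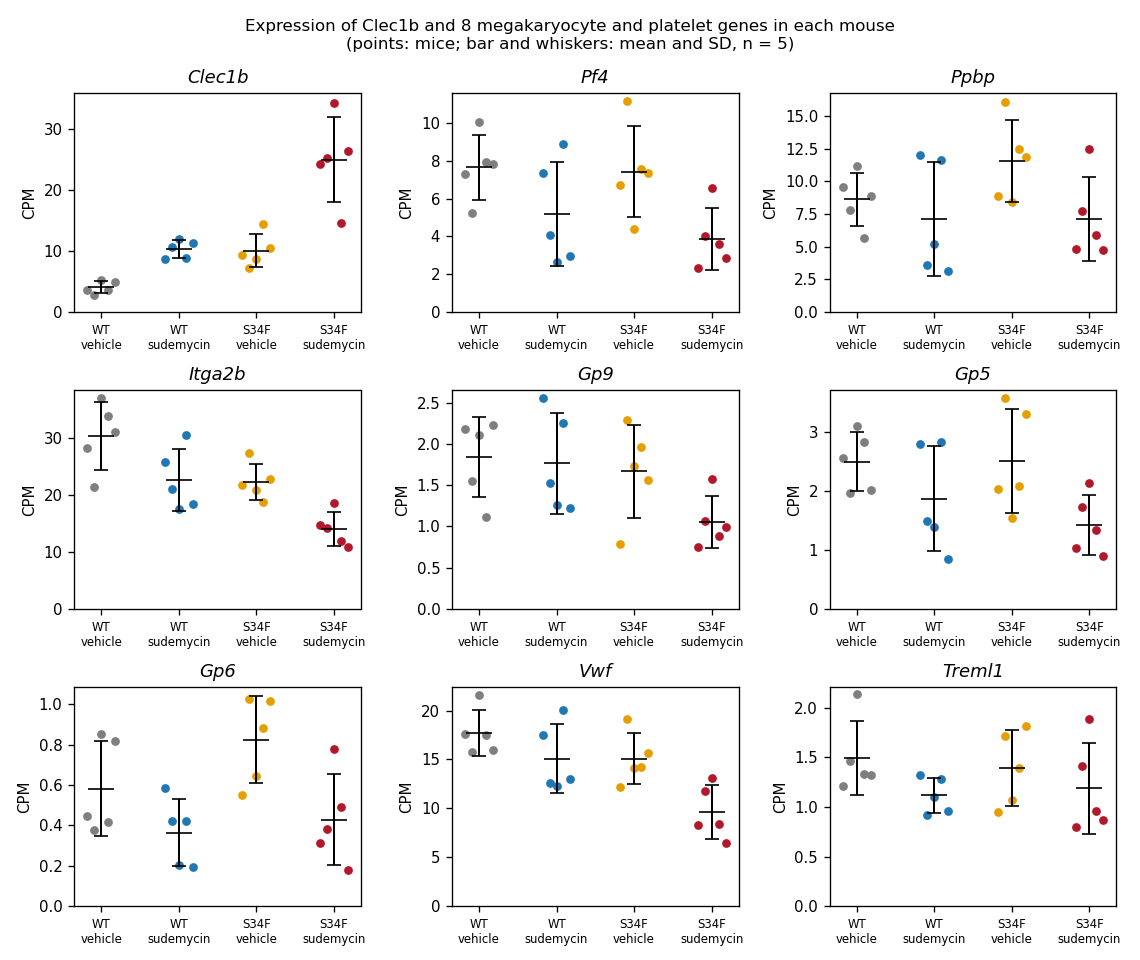
Level of each of the 9 genes in CPM (y axis, one scale per panel) in every mouse, by group (x axis). Points are mice and bars mark the mean and SD of 5 mice. *Clec1b* climbs from 4.07 to 25.03 CPM across the groups, whereas *Itga2b* declines from 30.4 to 14.1 CPM.

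None of the 8 lineage genes was called higher in any of the 5 comparisons in which *Clec1b* stood higher. Between the genotypes under vehicle, 1 of 8 was lower and none was higher at FDR<10% (edgeR, Benjamini-Hochberg adjustment over all genes tested), and between the genotypes under sudemycin 3 of 8 were lower. Over all genes tested, 19.8% were lower and 19.7% higher under vehicle, and 19.6% lower and 17.2% higher under sudemycin. With sudemycin, 0 of 8 passed in U2AF1(WT) mice, where 1.89% of all genes were lower and 1.18% higher. In U2AF1(S34F) mice, 3 of 8 were lower with sudemycin, against 5.85% lower and 4.94% higher over all genes. S34F-sudemycin mice had 5 of 8 lower than WT-vehicle mice, where 25.1% of all genes were lower and 25.1% higher. In bulk marrow, fewer cells of a type and less RNA per cell cannot be told apart.

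The count of 0 for the drug in U2AF1(WT) mice was found by edgeR and by DESeq2, with 1 of 8 at an unadjusted p under 0.05. For the drug in U2AF1(S34F) mice, 7 of 8 had an unadjusted p under 0.05, and DESeq2 called 6 of 8. The median log2 fold change of the 8 genes was −0.08 for genotype under vehicle, −0.41 for genotype under sudemycin, −0.42 and −0.68 for the drug in U2AF1(WT) and U2AF1(S34F) mice, and −0.78 in the combined comparison. The medians over all genes tested lay between −0.03 and 0.00. The first median turned positive without WT-vehicle mouse 3 (0.05), S34F-vehicle mouse 1 (0.01) or S34F-vehicle mouse 5 (0.02), and the other 4 stayed below 0 whichever mouse was left out.

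**Figure D2:**
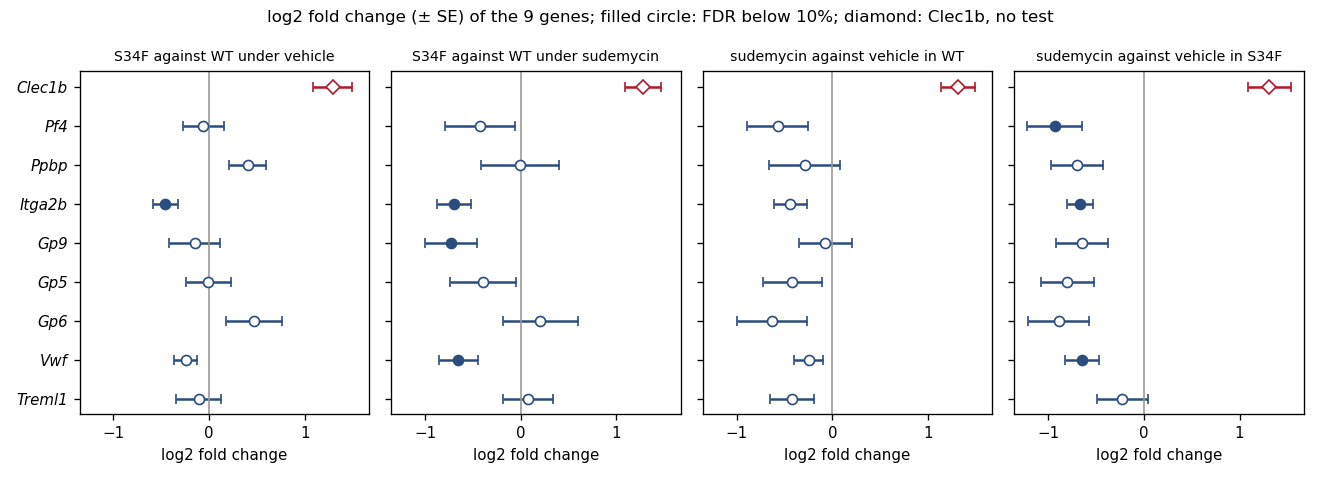
Log2 fold change (x axis) of the 9 genes (y axis) in 4 comparisons, genotype under vehicle and under sudemycin and drug in each genotype, with bars of 1 SE. Filled circles are genes at FDR<10%, open circles are not, and diamonds are *Clec1b*, shown without a test. *Clec1b* lies between 1.28 and 1.31 in all panels and every filled circle lies to the left of 0.

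Of the chemokine genes, *Pf4* was lower in S34F-sudemycin than in S34F-vehicle mice. *Pf4* stood at 5.22, 7.30, 7.85, 7.94 and 10.04 CPM in WT-vehicle mice (7.67 ± 1.72). It stood at 2.65, 2.98, 4.09, 7.34 and 8.88 CPM in WT-sudemycin mice (5.19 ± 2.78), and at 4.41, 6.70, 7.33, 7.57 and 11.1 CPM in S34F-vehicle mice (7.43 ± 2.42). S34F-sudemycin mice had 2.32, 2.88, 3.62, 4.04 and 6.56 CPM (3.88 ± 1.64). The last group was the lowest on average but overlapped each of the others, and 2 WT-sudemycin mice, numbers 6 and 10, sat at the vehicle level. *Pf4* fell by 0.93 on the log2 scale with sudemycin in U2AF1(S34F) mice (SE 0.28, FDR=0.0772), and by 0.97 in these mice against WT-vehicle mice (SE 0.25, FDR=0.0076). The drug call was lost without any 1 of S34F-vehicle mice 1, 3, 7 and 11 and S34F-sudemycin mice 2, 6, 10 and 12 (highest FDR=0.157).

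*Ppbp* passed in no comparison. It averaged 8.63 ± 2.06 CPM in WT-vehicle, 7.12 ± 4.37 in WT-sudemycin, 11.6 ± 3.11 in S34F-vehicle and 7.13 ± 3.21 in S34F-sudemycin mice. The SD in WT-sudemycin mice was the widest of the 4, since mice 6 and 10 had 12.02 and 11.6 CPM and the other 3 had 3.17 to 5.19. Its log2 fold change was 0.41 for genotype under vehicle (FDR=0.127) and −0.70 for the drug in U2AF1(S34F) mice (FDR=0.158). Without S34F-sudemycin mouse 9, whose 12.5 CPM was above the 4.78 to 7.73 of the other 4, *Ppbp* passed in the combined comparison, with −0.57 (FDR=0.0359), and for the drug in U2AF1(S34F) mice, with −0.99 (FDR=0.029). Under vehicle it passed as higher in U2AF1(S34F) mice without WT-vehicle mouse 3 (0.52, FDR=0.0748), S34F-vehicle mouse 1 (0.49, FDR=0.0922) or S34F-vehicle mouse 5 (0.50, FDR=0.0714).

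*Itga2b* was lower in 4 of the 5 comparisons, more than any other lineage gene. WT-vehicle mice had 21.5, 28.3, 31.1, 33.9 and 37.1 CPM (30.4 ± 5.94), and WT-sudemycin mice had 17.5, 18.5, 21.0, 25.8 and 30.5 CPM (22.7 ± 5.43). S34F-vehicle mice had 18.9, 20.8, 21.8, 22.9 and 27.3 CPM (22.3 ± 3.15), and S34F-sudemycin mice had 10.97, 11.9, 14.2, 14.7 and 18.5 CPM (14.1 ± 2.93). All S34F-sudemycin mice were below every vehicle-treated mouse of either genotype. Groups did not overlap, with the lower values in the same group, for 3.97% of all genes for the drug in U2AF1(S34F) mice and 12.3% in the combined comparison.

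*Itga2b* fell by 0.46 on the log2 scale with the mutant under vehicle (SE 0.13, FDR=0.0194) and by 0.69 under sudemycin (SE 0.18, FDR=0.0129). It fell by 0.67 with sudemycin in U2AF1(S34F) mice (SE 0.14, FDR=0.0167) and by 1.11 in these mice against WT-vehicle mice (SE 0.16, FDR=0.000193). These 4 calls held in all alternatives and whichever mouse was left out. For the drug in U2AF1(WT) mice the value was −0.44 (FDR=0.277).

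*Gp9* and *Gp5*, of the GPIb-IX-V complex, were called only as lower in S34F-sudemycin mice over the 5 comparisons. *Gp9* averaged 1.84 ± 0.487, 1.76 ± 0.608, 1.67 ± 0.561 and 1.06 ± 0.316 CPM in WT-vehicle, WT-sudemycin, S34F-vehicle and S34F-sudemycin mice. In the last group the mice ranged from 0.749 to 1.58 CPM and overlapped each of the others. *Gp9* fell by 0.73 on the log2 scale with the mutant under sudemycin (SE 0.28, FDR=0.0671) and by 0.78 in the combined comparison (SE 0.24, FDR=0.0196). The former call was lost without any 1 of WT-sudemycin mice 6 and 10 and S34F-sudemycin mice 2, 6, 10 and 12 (highest FDR=0.15). *Gp5* averaged 2.50 ± 0.501, 1.88 ± 0.896, 2.51 ± 0.882 and 1.43 ± 0.511 CPM in the same order of groups. It fell by 0.79 in the combined comparison (SE 0.24, FDR=0.0168), and the value for the drug in U2AF1(S34F) mice was −0.80 (FDR=0.115). Without S34F-vehicle mouse 5 or S34F-sudemycin mouse 9 the drug value of *Gp5* passed (−0.93, FDR=0.0707, and −0.98, FDR=0.0817), and without S34F-vehicle mouse 1 that of *Gp9* did (−0.82, FDR=0.0778).

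*Gp6* was the least abundant member and its counts were too few to resolve small differences. With 9 to 61 reads per mouse it averaged 0.582 ± 0.234, 0.364 ± 0.166, 0.825 ± 0.216 and 0.429 ± 0.226 CPM in the same order of groups. Its largest log2 fold change, −0.89 for the drug in U2AF1(S34F) mice, did not pass (FDR=0.126) but passed without S34F-sudemycin mouse 9 (−1.19, FDR=0.0551). *Treml1* passed in no comparison either, with 1.49 ± 0.371, 1.12 ± 0.179, 1.39 ± 0.384 and 1.19 ± 0.458 CPM. Its log2 fold changes ran from −0.42 for the drug in U2AF1(WT) mice (FDR=0.463) to 0.08 for genotype under sudemycin (FDR=0.851).

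*Vwf* was lower in S34F-sudemycin mice than in each group it was compared with. It stood at 15.7, 16.001, 17.5, 17.6 and 21.6 CPM in WT-vehicle mice (17.7 ± 2.35) and at 12.3, 12.6, 13.003, 17.5 and 20.1 CPM in WT-sudemycin mice (15.1 ± 3.51). It stood at 12.2, 14.1, 14.2, 15.6 and 19.1 CPM in S34F-vehicle mice (15.1 ± 2.59) and at 6.49, 8.27, 8.44, 11.8 and 13.1 CPM in S34F-sudemycin mice (9.62 ± 2.73). The S34F-sudemycin mice did not overlap with the WT-vehicle mice, and mouse 9 of the former was the highest of its group, as it also was for *Pf4*, *Ppbp*, *Itga2b*, *Gp9*, *Gp5*, *Gp6* and *Treml1*. *Vwf* fell by 0.65 on the log2 scale with the mutant under sudemycin (SE 0.20, FDR=0.0328) and by 0.65 with sudemycin in U2AF1(S34F) mice (SE 0.18, FDR=0.0572). In the combined comparison it fell by 0.88 (SE 0.17, FDR=0.00125). The drug call in U2AF1(S34F) mice was lost without vehicle-treated mouse 3 or 11 or sudemycin-treated mouse 2 or 10 (highest FDR=0.131).

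Of the lineage genes 3 thus passed for the drug in U2AF1(S34F) mice and 0 in U2AF1(WT) mice, but the difference between these drug effects did not pass for any of the 8. The interaction term had FDR from 0.751 to 0.956 over the 8 genes, with 0 called by edgeR and by DESeq2 and 0 at an unadjusted p under 0.05. Over all genes 0.013% passed for the interaction.

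Because the genes differ in length, their levels were compared with each other as CPM per kb of exon, and the place of *Clec1b* among them turned on the length used. All annotated exons of *Clec1b* span 5103 bp, most of it the long last exon of a transcript annotated as a retained intron, whereas the transcript with its 6 exons has 1090 bp. Over all exons, *Clec1b* ranked 8 of 9 in WT-vehicle mice with 0.797 ± 0.198 and 3 of 9 in S34F-sudemycin mice with 4.91 ± 1.38. Over the transcript with most exons of each gene, an alternative chosen after the data were seen, it ranked 4 of 9 with 3.73 ± 0.929 and 1 of 9 with 22.97 ± 6.45. Among the other 8, *Pf4* led under both lengths in all 4 groups, with 13.1 ± 2.94 in WT-vehicle and 6.62 ± 2.80 in S34F-sudemycin mice, and *Gp6* was last under both, with 0.505 and 0.372. In WT-vehicle mice *Gp5* (1.14 ± 0.228) and *Treml1* (1.19 ± 0.297) did not differ beyond their SD. With either length *Clec1b* ranked higher in S34F-sudemycin than in WT-vehicle mice.

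Within each mouse, *Clec1b* was set against the mean log2 CPM of the 8 lineage genes, as a ratio that is not corrected for length and is read between groups of mice. In WT-vehicle mice *Clec1b* differed from this mean by −0.13 ± 0.17 (range −0.32 to 0.13). The difference was 1.67 ± 0.72 (0.89 to 2.35) in WT-sudemycin mice and 1.18 ± 0.54 (0.31 to 1.71) in S34F-vehicle mice. In S34F-sudemycin mice it was 3.20 ± 0.48 (2.56 to 3.78). All 15 mice outside WT-vehicle exceeded the highest mouse of that group. The lineage mean itself was 2.13 ± 0.26, 1.69 ± 0.52, 2.11 ± 0.34 and 1.40 ± 0.46 in the same order of groups, so most of the difference came from *Clec1b*, which went from 2.00 ± 0.36 to 4.60 ± 0.45.

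**Figure D3:**
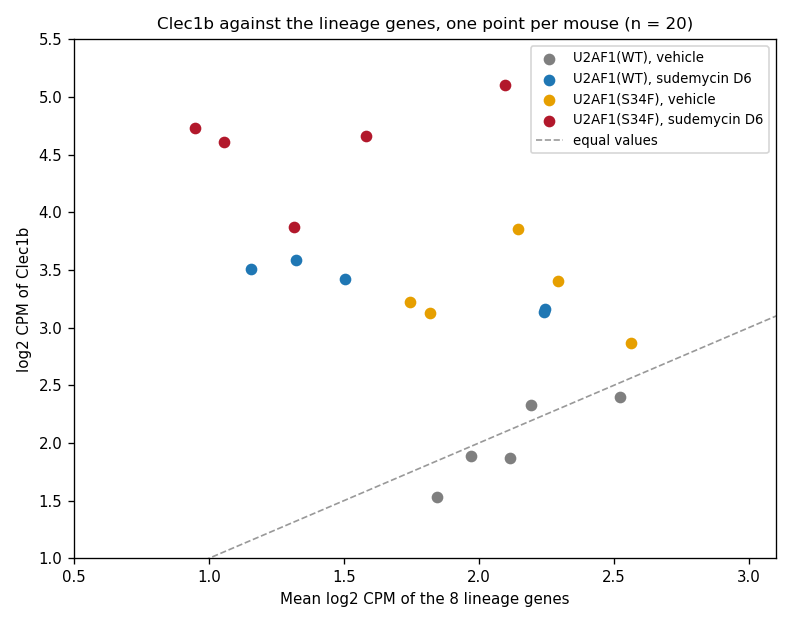
Log2 CPM of *Clec1b* (y axis) against the mean log2 CPM of the 8 lineage genes (x axis) in the 20 mice, coloured by group, with a dashed line where both are equal. The WT-vehicle mice lie on the line (mean difference −0.13) and the S34F-sudemycin mice lie farthest above it (mean difference 3.20).

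Pooled over the groups, deviations from the group mean went together among the lineage genes, and those of *Clec1b* did not follow them. Each gene's log2 CPM was taken as a deviation from its group mean and correlated over the 20 mice. The points share group means and library scaling, and the values are descriptive. The 28 pairs of lineage genes had a median Pearson r of 0.74 (0.47 to 0.88), whereas *Clec1b* and the mean of the 8 had r 0.09 and Spearman rho −0.03. Single lineage genes correlated with *Clec1b* at r from −0.08 for *Gp5* to 0.28 for *Treml1*, at ranks 3444 to 6639 of 12227 genes. The groups were not alike in this. In WT-sudemycin mice, mice 6 and 10 were above the other 3 in all 8 lineage genes, for *Gp6* by 0.421 against 0.419 CPM. Their *Clec1b* levels were 8.75 and 8.90 CPM, the lowest of the 5. In WT-vehicle mice, mouse 2 was lowest and mouse 3 highest in both log2 *Clec1b* (1.53 and 2.40) and the lineage mean (1.84 and 2.52). S34F-sudemycin mouse 9 was the highest of its group in both (5.11 and 2.10). The relation within single groups was not tested.

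The 5 genes whose deviations were most like those of *Clec1b* were *Ankrd12* (r 0.90), *4933407H18Rik* (0.89), *Lhfpl2* (0.87), *Gbe1* (0.87) and *A730011C13Rik* (0.86), none of them on the megakaryocyte lists. Their differences between groups were smaller than those of *Clec1b* or in the other direction. *Ankrd12* was higher by 0.28 for genotype under vehicle (FDR=0.0524), and *Gbe1* and *A730011C13Rik* were called in no comparison. *Lhfpl2* was higher by 0.38 for genotype under vehicle (FDR=0.0202), by 0.47 for the drug in U2AF1(WT) mice (FDR=0.0614) and by 0.45 in the combined comparison (FDR=0.00552). *4933407H18Rik* fell by 0.18 with the mutant under vehicle (FDR=0.0872), by 0.34 under sudemycin (FDR=0.00381) and by 0.31 in the combined comparison (FDR=0.00495).

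Of 44 further megakaryocyte and platelet genes, *Adra2a* was tested only in the interaction fit and 43 were tested in all comparisons. Under vehicle, 5 were higher and 10 lower in U2AF1(S34F) mice, that is 11.6% and 23.3% against 19.7% and 19.8% of all genes. Under sudemycin 2 were higher and 15 lower, or 4.65% and 34.9% against 17.2% and 19.6%. With sudemycin, 1 was higher and 1 lower in U2AF1(WT) mice, each 2.33% against 1.18% and 1.89%. In U2AF1(S34F) mice 2 were higher and 9 lower with sudemycin, or 4.65% and 20.9% against 4.94% and 5.85%. In the combined comparison 5 were higher and 25 lower, or 11.6% and 58.1% against 25.1% and 25.1%, with a median log2 fold change of −0.46 against −0.003 over all genes. The interaction called 0 of 44 by edgeR and by DESeq2, with 2 at an unadjusted p under 0.05.

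In the combined comparison, the transcription factors of the list had 6 lower and 1 higher of 7, the receptors of platelet agonists 6 lower and 2 higher of 8, and the granule genes 4 lower of 7. The adhesion genes had 4 lower and 1 higher of 9, and the enzymes and cytoskeletal proteins 5 lower and 1 higher of 12. *Thbs1*, encoding thrombospondin-1, which is also known from monocytes, had the largest change of the called genes in each of the 5 comparisons. It averaged 549 ± 193, 135 ± 62.8, 131 ± 61.6 and 46.0 ± 7.92 CPM in WT-vehicle, WT-sudemycin, S34F-vehicle and S34F-sudemycin mice, and it fell by 3.58 on the log2 scale from the first to the last (FDR=3.96e-06). *Thbs1* went down across the same groups in which *Clec1b* went up.

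*F2rl2*, encoding the thrombin receptor PAR3, fell by 1.93 (FDR=0.00077) and *Zfpm1*, encoding FOG-1, the cofactor of GATA-1, fell by 1.59 (FDR=0.000215) in the same comparison. *Gfi1b*, encoding a repressor of the erythroid and megakaryocyte lineages, fell by 1.03 (FDR=0.044) and *Sdpr* fell by 0.96 (FDR=0.03) with sudemycin in U2AF1(S34F) mice. *Ptgs1*, encoding cyclooxygenase-1, was the one gene that rose with sudemycin in U2AF1(WT) mice, by 0.55 (FDR=0.05). Among the rest, chosen after their values were seen, *Gata1*, encoding the transcription factor GATA-1, fell by 1.31 at FDR<10% in the combined comparison. *Gp1ba* fell by 1.04 there while its partner *Gp1bb* rose by 0.45, and the ADP receptor genes *P2ry12* and *P2ry1* rose by 0.94 and 0.46, each at FDR<10%.

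Genes of CLEC-2 signalling were more often called lower than higher in the combined comparison. Between the genotypes the share called lower was near that over all genes. Of 12 listed genes, 11 or 12 were tested in each comparison. Between the genotypes under vehicle none was higher and 2 of 12, or 16.7%, were lower, against 19.7% and 19.8% of all genes. Under sudemycin 0 were higher and 2 of 11, or 18.2%, lower, against 17.2% and 19.6%. In the combined comparison 1 was higher and 5 lower of 12, that is 8.33% and 41.7% against 25.1% and 25.1% of all genes, and DESeq2 called 7. With sudemycin, 0 were called by edgeR in either genotype. In U2AF1(WT) mice DESeq2 also called 0, with 0 at an unadjusted p under 0.05, and in U2AF1(S34F) mice DESeq2 called 2, with 2 at an unadjusted p under 0.05. *Syk*, the kinase that CLEC-2 recruits, stood at 727, 673, 552 and 539 CPM in the 4 groups and fell by 0.41 with the mutant under vehicle (FDR=0.00806), by 0.32 under sudemycin (FDR=0.0193) and by 0.43 in the combined comparison (FDR=0.00232). *Lcp2*, encoding the adaptor SLP-76, fell by 0.20 under vehicle (FDR=0.077), and *Lat*, encoding another adaptor, fell by 0.93 under sudemycin (FDR=0.0289). In the combined comparison, *Pdpn*, encoding the ligand podoplanin, fell by 0.996 (FDR=0.0364) from 0.303 to 0.133 CPM and *Fyn* by 0.32 (FDR=0.022). *Fcer1g*, encoding the Fc receptor γ chain, rose there by 0.23 (FDR=0.0699).

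Markers of other marrow cells moved in the same comparisons, and their part in the levels of the 9 genes was not tested. From WT-vehicle to S34F-sudemycin mice, 7 of 7 B-cell, 7 of 9 endothelial, 5 of 6 progenitor, 4 of 8 erythroid, 4 of 6 dendritic, 4 of 6 T and NK, 3 of 7 monocyte and 3 of 5 basophil, eosinophil and mast cell genes were lower, where 25.1% of all genes were. In the dendritic, T and NK and monocyte lists 1 gene each was higher, and in the other 5 lists 0. The summed level of a list need not follow these counts: the median sum went from 1844 to 2161 CPM for monocyte and from 64.4 to 75.2 CPM for T and NK genes. Of 11 neutrophil genes, 4 were higher and 1 lower. With sudemycin in U2AF1(S34F) mice, where 3 lineage genes were lower, 5 of 6 progenitor, 2 dendritic, 2 T and NK, 1 endothelial, 1 erythroid and 1 basophil, eosinophil or mast cell gene were lower, and 1 dendritic and 1 monocyte gene were higher, where 5.85% of all genes were lower and 4.94% higher. The summed CPM of the 8 lineage genes ranged over 55.6 to 88.1 in WT-vehicle, 40.9 to 77.9 in WT-sudemycin, 52.8 to 82.3 in S34F-vehicle and 28.1 to 57.0 in S34F-sudemycin mice. In the same order, the neutrophil sum ranged over 65382 to 74330, 60369 to 107677, 87158 to 142583 and 73338 to 123982 CPM. The dendritic sum ranged over 45.4 to 81.6, 40.1 to 75.4, 64.2 to 87.8 and 44.2 to 64.3 CPM. This list includes *Clec9a*, a gene beside *Clec1b*, which was its 1 gene called higher in both comparisons. The progenitor sum ranged over 111.2 to 163.8, 66.7 to 137.4, 137.2 to 175.4 and 92.5 to 125.9 CPM.

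*Clec1b* lies on the plus strand of chromosome 6, at chr6:129347315-129359353 of NCBI build 37 (ENSMUSG00000030159), in a cluster of C-type lectin genes. The lineage genes are scattered over other places. *Ppbp* (ENSMUSG00000029372, 91197544 to 91199086) and *Pf4* (ENSMUSG00000029373, 91201461 to 91202407) are neighbours on chromosome 5, plus strand. On chromosome 6, plus strand, lie *Gp9* (ENSMUSG00000030054, 87728130 to 87729756) and *Vwf* (ENSMUSG00000001930, 125496792 to 125636697). On minus strands lie *Itga2b* (ENSMUSG00000034664, chromosome 11, 102314611 to 102331436), *Gp5* (ENSMUSG00000047953, chromosome 16, 30307772 to 30310865) and *Gp6* (ENSMUSG00000078810, chromosome 7, 4320315 to 4349346). *Treml1* (ENSMUSG00000023993) lies at 48499241 to 48506499 of chromosome 17, plus strand. Around *Clec1b*, *Clec12a* lies upstream on the same strand at a gap of 31993 bp, *Clec12b* lies between them on the minus strand, *Clec9a*, a receptor of cross-presenting dendritic cells, starts inside the 3′ end of *Clec1b* on the same strand (129358880 to 129374780), and *Clec1a* overlaps it on the minus strand. The gene counter used by the authors and its strand setting are not given in the sources used here, so reads in these overlaps could have been counted for more than 1 gene or for none. Reads on annotated *Clec1b* junctions, which do not depend on the overlaps, were therefore counted as well, an alternative chosen after the data were seen. They are given as RPM, reads per 1000000 of the same scaled libraries. They averaged 3.15 ± 0.54, 7.62 ± 1.13, 7.52 ± 2.25 and 16.02 ± 4.68 RPM in WT-vehicle, WT-sudemycin, S34F-vehicle and S34F-sudemycin mice, in the order seen for the gene counts. The log2 ratios of the means were 1.26 and 1.07 between the genotypes under vehicle and sudemycin, 1.28 and 1.09 for the drug in U2AF1(WT) and U2AF1(S34F) mice, and 2.35 in the combined comparison.

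Some neighbours of *Clec1b* rose in part of these comparisons. *Clec9a* averaged 3.29, 4.72, 4.08 and 8.61 CPM in the same order of groups. It rose by 0.86 with the mutant under sudemycin (FDR=0.00344), by 1.07 with sudemycin in U2AF1(S34F) mice (FDR=0.00232) and by 1.38 in the combined comparison (FDR=0.00013), and its within-group deviations had r 0.83 with those of *Clec1b*. Its own annotated junctions carried 1.53, 2.83, 1.96 and 5.24 RPM. *Clec12b*, at no more than 0.45 CPM in any group mean, rose by 1.75 (FDR=0.0268), 1.17 (FDR=0.0945) and 1.54 (FDR=0.058) in the same 3 comparisons, and *Clec1a* rose by 0.96 (FDR=0.0206) in the first and 0.74 (FDR=0.0307) in the last. *Clec12a*, the nearest gene upstream on the same strand and the most abundant of these, was called in none and averaged 406, 434, 445 and 412 CPM. *Clec7a*, *Clec2d*, *Cd69*, *Klre1*, *Olr1* and *Gabarapl1* were each called in some comparison in mixed directions. For genotype under vehicle 2 of 10 tested neighbours were higher and 1 lower, where 19.7% and 19.8% of all genes were. In the combined comparison 4 of 11 were higher and 3 lower, where 25.1% and 25.1% of all genes were. Counts this small are not separated from these shares.

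U2AF1 contacts the AG that ends an intron, and the S34F mutant is known to shift which base before this AG is favoured. The acceptors of *Clec1b* are therefore shown, each as 20 intron and 3 exon bases read from NCBI build 37 on the plus strand, with the last 3 intron bases in capitals.
exon 2, chr6:129350058-129350080: tcttttctgtgctcccaCAGcgg
exon 3, chr6:129351470-129351492: tatctcatttctacatcTAGcgg
exon 4, chr6:129351740-129351762: atactcggtctcaccttCAGagc
exon 5, chr6:129353559-129353581: tggatttatggttgcaaCAGgac
exon 6, chr6:129355105-129355127: tctgccttttttatttgTAGgat
Of these acceptors 3 end in CAG and 2, those of exons 3 and 6, end in TAG. Splicing was tested on the share that each junction had of the reads at an end it shared with other junctions, for junctions with at least 1 annotated end.

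No junction of the 9 genes passed the test of its share in any comparison. With limma, 0 of 41, 27, 32, 36 and 32 shares were called for genotype under vehicle, genotype under sudemycin, drug in U2AF1(WT), drug in U2AF1(S34F) and the combined comparison. A junction could give a share at either of its ends, and the shares of a choice between 2 junctions mirror each other. Of the shares tested, 29, 18, 23, 27 and 24 came from junctions with both ends annotated. At an unadjusted p under 0.05 there were 3, 0, 1, 2 and 0. Over all shares tested, with no filter on annotation, 0.543%, 0.653%, 0.0453%, 0.143% and 1.76% were called. The observed share differences at the members reached 18.7 percentage points without passing, so differences up to that size were not separated from the spread between mice at this depth. On the logit scale 2 shares were called in the combined comparison, the mirrored sides of 1 choice at the exon 5 acceptor of *Clec1b*. There the share joined to exon 4 rather than exon 3 was 97.8% against 99.95% (FDR=0.0446). At the exon 3 acceptor, the share of reads from exon 1 was 19.6% in WT-vehicle, 3.15% in WT-sudemycin, 10.1% in S34F-vehicle and 3.46% in S34F-sudemycin mice. This share does not measure skipping of exon 2 alone. WT-sudemycin mice, for example, had 277 reads from exon 2 to 3 and 16 from exon 1 to 2. At the exon 1 donor, the share that skipped exon 2 was 27.1% in WT-vehicle, 31.7% in S34F-vehicle and 14.6% in S34F-sudemycin mice. It was not tested in WT-sudemycin mice for want of reads. Neither share was called.

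Reads along *Clec1b* were unequal, with few on the first junction. The junction of exons 1 and 2 had 0.12, 0.064, 0.23 and 0.30 RPM in WT-vehicle, WT-sudemycin, S34F-vehicle and S34F-sudemycin mice. The junction of exons 5 and 6 had 0.93, 2.47, 2.19 and 5.03. Among the junctions of successive exons the first was the lowest in every group, and 28, 16, 64 and 81 reads in all supported it. This ratio and the following counts upstream of exon 1 were examined after their values were seen, and no test was run. The ratio of first-junction to last-junction reads was 0.12, 0.027, 0.10 and 0.060 for *Clec1b*, in the same order of groups. *Pf4* had 0.94, 0.98, 0.88 and 0.96, *Ppbp* 0.99, 0.80, 1.04 and 0.95, *Vwf* 1.23, 0.80, 0.78 and 1.52, and *Itga2b* 2.26, 1.95, 2.82 and 2.19. *Treml1*, with 0.77, 0.19, 0.72 and 0.59, and *Gp6*, with 0.41, 1.7, 0.63 and 0.52, were below 1 in most groups on 14 to 67 and 11 to 53 first-junction reads, and the ratio of *Clec1b* was the lowest in each group.

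**Figure D4:**
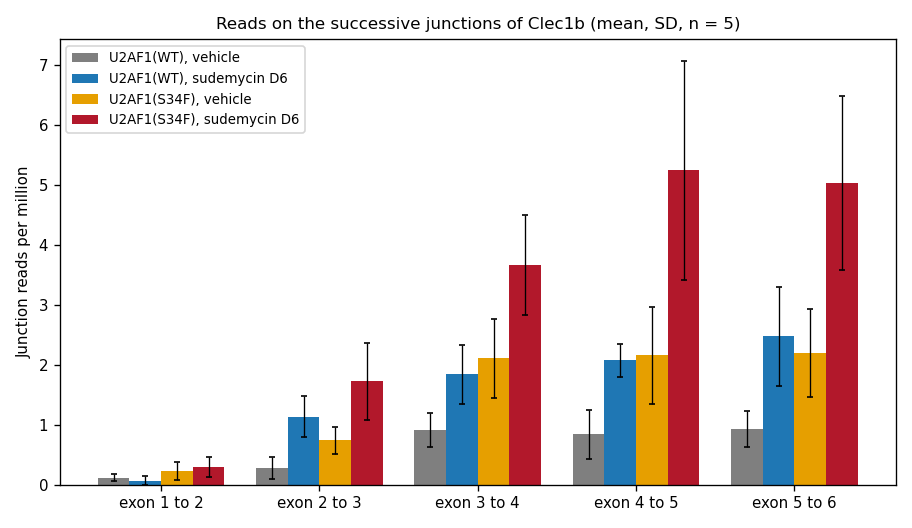
RPM (reads per 1000000, y axis) on the 5 junctions between successive exons of *Clec1b* (x axis), as the mean and SD of the 5 mice in each group. The exon 1 to 2 junction stays at or below 0.30 in every group mean, and the exon 5 to 6 junction runs from 0.93 in WT-vehicle to 5.03 in S34F-sudemycin mice.

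Between *Clec12a* and exon 1 of *Clec1b*, 88 junctions absent from the annotation ran on the plus strand. They summed to 1.54 ± 0.46 RPM in WT-vehicle mice (0.900 to 2.18), 2.81 ± 0.44 in WT-sudemycin mice (2.51 to 3.55), 3.70 ± 1.23 in S34F-vehicle mice (1.95 to 5.23) and 7.18 ± 2.60 in S34F-sudemycin mice (3.88 to 10.8). As for *Clec1b*, WT-vehicle mice had the lowest mean and S34F-sudemycin mice the highest, and all WT-sudemycin mice were above all WT-vehicle mice. Unlike for *Clec1b*, the mean of the S34F-vehicle mice exceeded that of the WT-sudemycin mice. The ranges of these groups overlapped, as they did for *Clec1b*. The range of the S34F-vehicle mice also overlapped those of the WT-vehicle and S34F-sudemycin mice, which it did not for *Clec1b*. Of these junctions 33 left *Clec12a* and averaged 0.87, 1.31, 1.51 and 2.36 RPM, 48 lay between the genes with 0.54, 1.06, 1.89 and 3.75, and 7 entered exon 1 of *Clec1b* with 0.13, 0.43, 0.30 and 1.07. Of the 35 reads entering exon 1 in WT-vehicle mice 23 came from mouse 2, without which their mean was 0.061, and 2 of these mice had none. The annotated junctions of *Clec12a* had 370, 394, 436 and 385 RPM, and the 98694 junctions of the whole table with neither end annotated had 12093, 13720, 14653 and 14025. Over the 20 mice, the within-group deviations of the 88 junctions had r 0.80 and rho 0.60 with *Clec1b* counts and r 0.01 with the lineage mean, as descriptions of points that share a library.

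**Figure D5:**
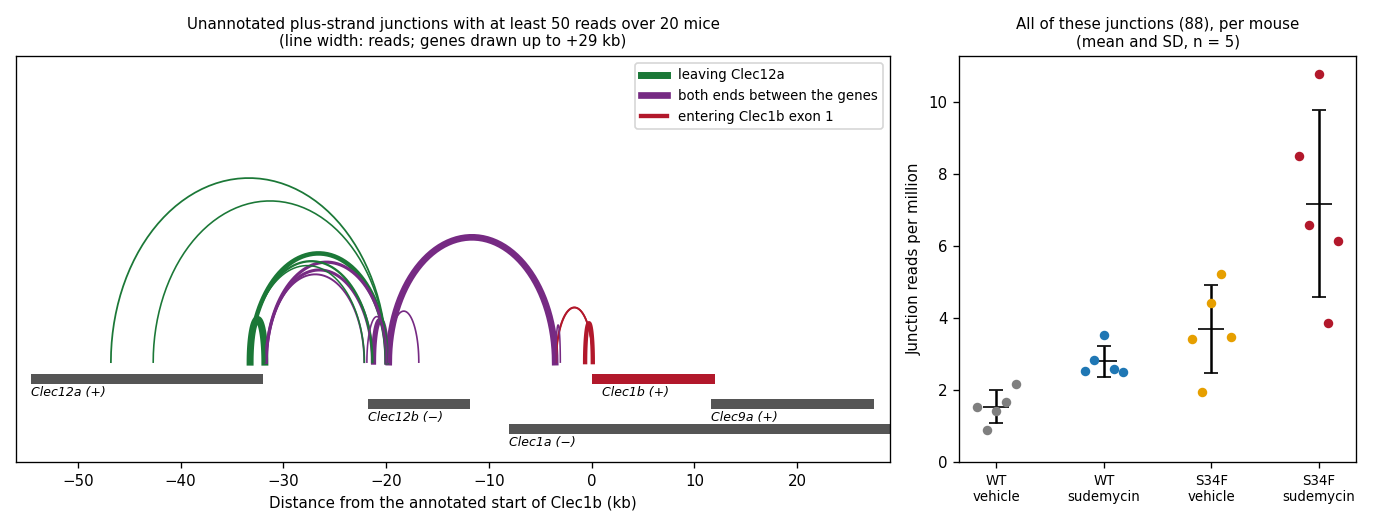
Left, arcs joining the ends of the unannotated plus-strand junctions with at least 50 reads in all mice, by distance from the start of *Clec1b* in kb (x axis). Right, RPM on all 88 such junctions in each mouse by group, with mean and SD, from 1.54 in WT-vehicle to 7.18 in S34F-sudemycin mice.

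Splice sites of the junctions with the most reads are shown because they lie along the interval from *Clec12a* to *Clec1b*. Intron bases come first in acceptors and last in donors, with the first 2 or last 3 intron bases in capitals, and each name gives the position in NCBI build 37 on chromosome 6, plus strand.
acceptor 129315512: ggcctttgcctttcccaCAGaaa
acceptor 129327376: cctagggtcattttccaCAGgtg
acceptor 129343761: atgctttgtttcccacaCAGgaa
acceptor 129347422, inside exon 1 of Clec1b: attattatttttgttttTAGgtt
donor 129314076: cagGTagcta
donor 129327568: attGTgagta
donor 129346674: acgGTaagcc
donor 129347696, end of exon 1 of Clec1b: cagGTaagaa
The junction from 129314076 to 129315512 had 573 reads in the 20 mice and that from 129326087 to 129327376 had 399. The junction from 129327568 to 129343761 had 545, as 20, 55, 157 and 313 in WT-vehicle, WT-sudemycin, S34F-vehicle and S34F-sudemycin mice, and the junction from 129346674 to 129347422 had 322 and ended 107 bp after the annotated start. All these donors begin with GT and the acceptors between the genes end in CAG, while the acceptor inside exon 1 ends in TAG.

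Megakaryocyte genes are classically driven by GATA-1 together with factors of the Ets family. To see whether *Clec1b* and the lineage genes that fell share such letters at their starts, the 250 bases before the RefSeq start (GRCm38.p6) were searched on both strands for AGATAA and AGGAAG. Of the 9 members 8 had an entry. For *Clec1b*, reads joining annotated exons 1 and 2 were few beside those on its last junction. Their ratio ran from 0.027 in WT-sudemycin to 0.12 in WT-vehicle mice. Which start most *Clec1b* reads came from was not determined. AGATAA was found in 2 of 8, *Gp5* and *Gp6*, against 9.99% of 32851 windows, and AGGAAG in 4 of 8, *Pf4*, *Gp9*, *Itga2b* and *Gp5*, against 29.5%. Both were found in *Gp5* alone (2.95% of all windows) and neither in the window of *Clec1b*. The windows of *Clec1b* and *Gp5* are shown for contrast, 5′ to 3′ on the strand of the gene with matches in capitals.
Clec1b, chr6:129397047-129397296, plus strand: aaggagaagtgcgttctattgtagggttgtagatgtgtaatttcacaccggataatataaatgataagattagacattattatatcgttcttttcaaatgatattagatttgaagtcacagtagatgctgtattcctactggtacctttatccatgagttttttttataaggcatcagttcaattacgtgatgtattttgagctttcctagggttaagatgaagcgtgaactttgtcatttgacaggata
Gp5, chr16:30310782-30311031, minus strand: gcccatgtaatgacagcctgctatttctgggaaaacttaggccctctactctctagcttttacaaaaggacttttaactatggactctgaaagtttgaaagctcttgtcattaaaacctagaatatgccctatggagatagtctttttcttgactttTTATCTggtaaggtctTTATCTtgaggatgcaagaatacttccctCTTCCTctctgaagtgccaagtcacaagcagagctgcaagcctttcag
In *Gp5* the AGATAA matches began 93 and 77 bases before the start and the AGGAAG match 48 bases before it, all read as their reverse complements on this strand. A match is a description of letters, and its absence from the *Clec1b* window says only that these letters are not there. Other forms of the GATA letters were not searched for. The *Clec1b* window shown holds such a form, TGATAA, whose share over all windows was not counted.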

How the data were processed

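Total RNA from the bone marrow of 20 mice, 5 in each of 4 groups named by the sample labels, was sequenced as paired ends from a stranded, ribosomal RNA-depleted library. The submitters' processing notes name TopHat2 2.0.8, SAMtools and mm9 (NCBI build 37). The authors deposited counts, whole numbers without normalization, of reads on 37620 genes and on splice junctions. The gene counter and its strand setting are not given in the sources used here. Symbols and coordinates of 37205 genes matched an annotation of the same build. No 2 mice of a group agreed within sampling noise.

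The test of gene counts was edgeR's quasi-likelihood test (version 4.0.16, R 4.3.3) with robust glmQLFit after filterByExpr and TMM, a prior count of 2 and Benjamini-Hochberg adjustment over all genes tested, at FDR<10%. Each of 5 comparisons used its own 10 mice and the interaction used all 20. SE is the log2 fold change divided by the square root of the quasi-likelihood F. CPM values were scaled by TMM over all mice. Total counts of 41145892 to 62138138 per mouse set the precision, and intervals for counting error alone are not given because replicates are. Junction shares were tested with limma 3.58.1 where the shared end had at least 10 reads per mouse on average and reads in every mouse, with mean shares of 1 to 99%, and were called at FDR<10% and a difference above 1%. RPM of junctions are relative to the effective library size of the gene counts. Correlations used genes with at least 1 CPM on average. The main gene fit was tested on simulated counts for the drug in U2AF1(WT) mice only, and the share test on simulated shares.

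The members and all lists were chosen with earlier results of these data known. Genes named are the 9 members, *U2af1*, up to 3 called genes with the largest change of the 44-gene list in each comparison, called genes of the CLEC-2 list, the 5 genes most like *Clec1b* and its 5 nearest protein-coding genes on each side. Others were chosen after their values were seen and are given as such. Alternatives were DESeq2 1.42.0, its size factors in edgeR, no filter on low counts, a mean of at least 1 CPM, one model of all mice, FDR<5%, a replicate block, Spearman's rho, other read and share limits and the logit scale for junctions, annotated junction reads in place of gene counts, the length of 1 transcript in levels per kb, and leaving out each mouse. Promoter windows are from RefSeq. Python 3.11.15, numpy 2.4.6, pandas 2.3.3 and matplotlib 3.10.9 were used for junctions, sequences and plots.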

Additional observations from a re-analysis of the deposited data

Results flagged for a closer look

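*Treml1* in WT-vehicle mouse 3 stood at 2.14 CPM, far from the 1.21 to 1.46 CPM of the other 4 mice. It was the only gap of this kind in 56 groups of 5 mice examined, where chance gives about 1 in 20.

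Reads on the 88 unannotated plus-strand junctions between *Clec12a* and *Clec1b*, whose summed level was not tested, averaged 7.18 RPM (reads per 1000000) in S34F-sudemycin, 3.70 in S34F-vehicle and 2.81 in WT-sudemycin mice, above the 1.54 of the WT-vehicle controls.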

How the results depend on the processing

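Of 88 results, 507 values were recomputed under 13 alternatives, of which 482 were counted as the same, as were 937 of 980 without 1 mouse. Same meant the same side of the threshold for single genes, a shift within the spread for *Clec1b* and medians, or a similar count. A changed sign counted as the same where neither fit called the gene. *Pf4* under vehicle, for example, ranged over −0.23 to 0.08 without 1 mouse. With this rule 0 were counted as reversed. For the megakaryocyte list under sudemycin between the genotypes, the 2 higher genes became 1 with DESeq2's size factors, 1 without a filter and 0 at FDR<5%. The 1 gene higher with sudemycin in U2AF1(WT) mice became 0 at FDR<5%, and in U2AF1(S34F) mice one model of all mice gave 1 higher and 5 lower in place of 2 and 9. The logit scale called 2 junction shares of the members, mirrored sides of 1 choice, in the combined comparison, in place of 0. The cause was not tested. The level of *Clec1b* per kb moved in all 4 groups with the length used. Over all genes, the drug in U2AF1(WT) mice gave 453 calls, against 811 with DESeq2, 1072 with one model and 243 at FDR<5%, and 38.4% of the 453 were higher against 51.2% with one model. The drug in U2AF1(S34F) mice gave 1588, against 788 with one model and 826 at FDR<5%, and the interaction 2, against 116 with DESeq2, 10 without a filter and 3 at a mean of 1 CPM. *Pf4* lost its drug call in U2AF1(S34F) mice without a filter (FDR=0.132), with one model (0.139) and at FDR<5%, whereas DESeq2 also called *Ppbp* (0.0596), *Gp5* (0.0426) and *Gp6* (0.0661) there. *Gp9* in the genotypes under sudemycin and *Vwf* for the drug in U2AF1(S34F) mice were lost at FDR<5%.

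Some replicate numbers occur in both genotypes, and the labels do not say what they stand for. The deviations of same-numbered mice had r from −0.05 to 0.15 under vehicle and −0.13 to 0.24 under sudemycin. They were not compared with those of differently numbered mice, and whether same-numbered mice shared a batch was not tested. With the replicate block, over the shared numbers, 0 listed genes were higher under vehicle and 0 under sudemycin, *Clec1b* differed by 0.85 under vehicle, *Gp9* under sudemycin had FDR=0.218 and *Vwf* under vehicle FDR=0.0798. Over all genes the block gave 4632 calls in place of 5851 under vehicle and 3734 in place of 5402 under sudemycin.

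With each mouse left out in turn, the log2 fold change of *Clec1b* ranged over 1.12 to 1.40 for genotype under vehicle, 1.14 to 1.42 under sudemycin, 1.21 to 1.42 and 1.17 to 1.48 for the drug in U2AF1(WT) and U2AF1(S34F) mice, 2.47 to 2.76 in the combined comparison and −0.14 to 0.17 for the interaction. The lineage median ranged over −0.20 to 0.05, −0.63 to −0.17, −0.55 to −0.30, −0.90 to −0.57, −0.97 to −0.69 and −0.55 to −0.19 in that order. Listed genes called higher numbered 4 to 6, 0 to 4, 0 to 1, 2 to 2 and 3 to 5 in the 5 comparisons (0 under sudemycin without WT-sudemycin mouse 10 or 12 or S34F-sudemycin mouse 2, 9 or 12, 1 without S34F-sudemycin mouse 6 or 10 and 4 without WT-sudemycin mouse 9; 0 for the drug in U2AF1(WT) mice without WT-vehicle mouse 1 or 5 or WT-sudemycin mouse 8 or 12; 3 in the combined comparison without WT-vehicle mouse 4 or S34F-sudemycin mouse 9) and lower 9 to 13, 10 to 16, 1 to 1, 7 to 11 and 19 to 28. The r of *Clec1b* with the lineage mean ranged over −0.08 to 0.20, and the called junction shares of the members stayed at 0. Without S34F-sudemycin mouse 9, *Treml1* was called at −0.54 (FDR=0.0974) in the combined comparison.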
